A study of Mus musculus with 10 samples.

Results

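The measurement described here was the amount of ribosome-protected RNA of each mouse gene set against the amount of its messenger RNA, in all 5 conditions of a ribosome profiling study. For each gene and condition, log2(footprint TPM + 1) minus log2(input TPM + 1) was taken, and then averaged over the 5 conditions. TPM is a level scaled for gene length and for the library total, and this log2 difference is called the footprint-to-input difference below: 0 means the same TPM in both libraries and 1 means a footprint value about 2 times the input value. Genes entered when their mean TPM over the 5 libraries was at least 5 in input or in footprints. Of 21927 genes listed in both deposited tables, 9266 did so. Input and footprints both reached that level for 7453 of them, while 1517 entered through input alone and 296 through footprints alone. Just inside the limit were Il1rl1, Zfp710 and Cdk5rap1, which entered through input, and just outside were Zfp788 and Pcdhga11 in input and Gm49527 in footprints; the mean footprint-to-input differences of these 6 were -0.15, -0.89, -0.35, -0.27, -1.49 and 2.14.

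Ribosome profiling digests a cell lysate with a nuclease and sequences the stretches of RNA that ribosomes shield. A transcript that carries many ribosomes for its amount gives many footprints per unit of input RNA, and a transcript held back from ribosomes gives few. Known classes with their own control include the mRNAs of ribosomal proteins and translation factors, which begin with a C and a run of pyrimidines (the terminal oligopyrimidine or TOP tract), mRNAs with short upstream reading frames, ferritin mRNAs bound by iron regulatory proteins, and selenoprotein mRNAs that read a stop codon as selenocysteine. Secretory and membrane proteins are translated at the endoplasmic reticulum, and 13 proteins of the respiratory chain are made inside mitochondria by separate ribosomes.

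The 10 libraries were 5 pairs of input RNA and footprints. Immortalized bone marrow-derived macrophages (iBMDM), described as monoclonal lines, gave a pair labelled WT, a pair from cells given lentivirus with a guide RNA against Wdr4 (sgWdr4-1) and a pair from cells given another such guide (sgWdr4-2), after puromycin selection. Tumour-associated macrophages (TAM), sorted for the surface protein F4/80 out of liver tumours that grew from implanted Hepa1-6 hepatoma cells, gave a pair from mice with floxed Wdr4 (Wdr4 ff) and a pair from mice with Wdr4 deleted in myeloid cells (Wdr4 cKO). The Cre driver, the age of the mice, the number of animals behind a library and the guide status of the WT cells were not given in the sources used here. Input RNA was enriched for polyadenylated mRNA before sequencing, and footprint RNA was not. Each condition had a single library of each kind, so the 5 conditions stand as the 5 replicates of the footprint-to-input comparison, and p-values measure the spread between these libraries. Values are given below in the order WT, sgWdr4-1, sgWdr4-2, Wdr4 ff and Wdr4 cKO.

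Wdr4, the partner of the tRNA methyltransferase Mettl1, was at 44.6, 31.3, 44.5, 39.8 and 20.9 TPM in input and at 13.3, 24.3, 26.9, 8.51 and 17.7 TPM in footprints. Footprints were below input in all 5 pairs (mean -1.01), and the targeted libraries did not stand below their controls in footprints. Mettl1 itself was at 53.4 to 60.5 TPM in input and 48.4 to 114 TPM in footprints, with a mean of 0.45. Of 24 macrophage marker genes, 21 stayed below 1 TPM across the input libraries, the F4/80 gene Adgre1 was listed at 0 in all libraries, and Cd14 was at 13.8 to 19.8 TPM in input. Of 14 fibroblast and stellate cell markers, 7 were at 5 TPM or more in every input library, among them Acta2 at 2397 to 3785 TPM, and the other 7, such as Pdgfra and Dcn, were under 1 TPM in every input library. The libraries are therefore named by their labels only. In bulk samples such as these, fewer cells of a type and less of its RNA per cell cannot be told apart. Between 8830 and 9113 genes reached 5 TPM in an input library and between 7035 and 7792 in a footprint library. The number of reads behind a value cannot be recovered from TPM and is unknown. Across the 9266 genes, log2 input levels of any 2 libraries had a Pearson correlation of 0.982 to 0.996. Footprint levels of the sgWdr4-1 library had 0.876 to 0.916 with the other footprint libraries, which had 0.952 to 0.974 among themselves. That library stands apart, so results that rest on it are also given without it.

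Most genes had a lower TPM in footprints than in input. The median gene had a mean footprint-to-input difference of -0.83, with pair medians of -0.71, -0.57, -0.77, -0.80 and -1.13. The middle 90% of genes lay between -2.60 and 1.37. In limma, with the condition as a block and Benjamini-Hochberg adjustment over all 9266 genes, 751 genes (8.10%) were higher and 4078 (44.0%) lower in footprints at an adjusted p under 0.05 and a mean of at least 1 in size. The values of a TPM library share a fixed total, so this split moves with whatever takes up much of a library. With each pair centred on its own median gene, 1922 genes (20.7%) were higher and 1670 (18.0%) lower. All 751 genes higher on the TPM scale were also higher after centring, and all 1670 lower after centring were lower on the TPM scale. In the iBMDM table alone, 734 genes were higher and 3627 lower on the TPM scale, and in the TAM table alone 858 and 4543. Gene groups are therefore described relative to the median gene of each pair, and the TPM scale is added where the direction differs. Of the lower genes on the TPM scale, 1250 had mean footprints under 5 TPM, and of the higher genes 184 had mean input under 5 TPM. The limma SE of the genes named below lay between 0.18 and 0.87. Means quoted for single genes are on the TPM scale, and those genes were called unless said otherwise; the means of Mettl1, Atf4, Oaz1, Tpt1, Farsb, Cct3, Sat1, Rps6 and Rps27 did not pass. After centring, the calls of Rnaset2b, Hmox1, Wdr4, Fth1, Srp72, Srebf2, Sqle, Ddit3, Azin1 and Rpl15 were lost. With no filter on low values the mean of the 5 pair medians was -0.26 in place of -0.80, and 32 of 36 list medians then lay lower relative to the median gene.

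**Figure D1:**
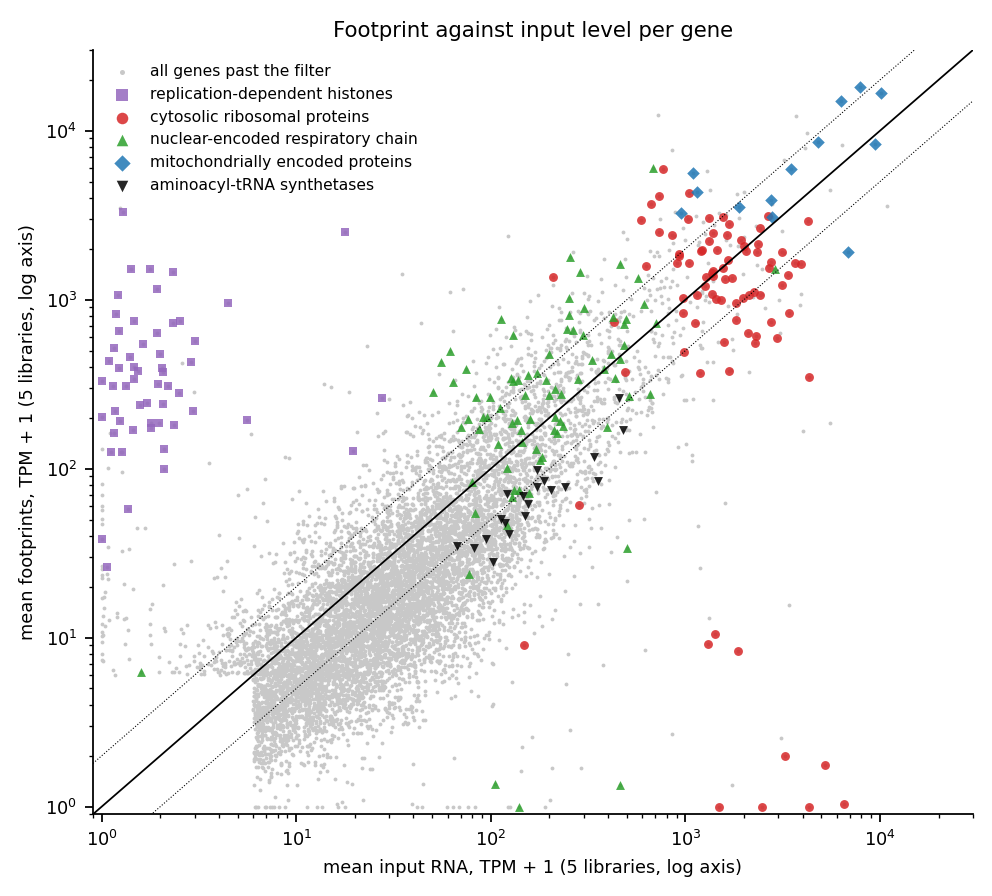
Mean footprint TPM + 1 against mean input TPM + 1 over 5 libraries for the 9266 genes (both axes log), with 5 gene lists coloured. The solid line marks equal levels and the dotted lines 2-fold either way; histone genes sit at the far left with high footprints, ribosomal protein genes such as Rps2 and Rps26 sit at the lower right with footprints at or near 0, and every aminoacyl-tRNA synthetase lies under the solid line.

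The order of genes was largely shared by the conditions, least by the sgWdr4-1 pair. The SD of the gene means was 1.47, while the median SD of a gene over its 5 pairs was 0.50, and 0.39 over the 4 pairs without sgWdr4-1. Footprints were above input in all 5 pairs for 1247 genes and below in all 5 for 5088; relative to the median gene, 2726 were above and 2602 below in every pair. As a description across 9266 genes, which are not independent and share libraries, the Pearson correlation between pairs was highest for sgWdr4-2 with Wdr4 cKO (0.935) and for WT with Wdr4 ff (0.930), pairs that come from different tables, and it was 0.875 for Wdr4 ff with Wdr4 cKO. The sgWdr4-1 pair had 0.751 to 0.817 with the others. Spearman rank correlations were lower, at 0.616 to 0.706 for sgWdr4-1 with the others and 0.805 to 0.901 among the other pairs. The mean over the 3 iBMDM pairs and the mean over the 2 TAM pairs were within 1 of each other for 8799 genes (94.96%), with a correlation of 0.944.

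Of the genes with the most footprints per input RNA, several abundant ones are given here. They were picked for their high means in these same libraries, so the separation of their values and the small p-values follow in part from that choice. Sem1, a small subunit of the proteasome lid, had input of 124, 113, 122, 129.7 and 118 TPM and footprints of 2019.5, 1568, 3021, 2511 and 2864 TPM. Every footprint value lay above every input value, and the mean difference was 4.25 (limma SE 0.19, adjusted p 2.6e-09, n = 5 pairs). Tomm7, of the translocase in the outer mitochondrial membrane, went from 66.8 to 79.7 TPM in input to 915 to 1466 TPM in footprints. Micos10, of the complex that shapes the folds of the inner mitochondrial membrane, had 58.8 to 62.9 TPM in input and 944 to 1367 TPM in footprints, a difference of 4.18. Neither gene's footprint values overlapped its input values in any library.

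The same held for Hypk, a partner of the N-terminal acetyltransferase NatA, at 10.7 to 15.9 against 272 to 330.2 TPM (4.35), for Polr2l, a subunit shared by nuclear RNA polymerases, at 38.5 to 47.7 against 604 to 916 TPM (4.05), and for Slirp, a mitochondrial RNA-binding protein, at 13.3 to 22.7 against 233 to 333 TPM (3.95). Tmem167, a small membrane protein of the secretory pathway, had 20.8 to 23.4 TPM in input and 296 to 642 TPM in footprints (4.47). Stmp1, a short mitochondrial membrane protein, had 58.2 to 67.8 against 338 to 1004 TPM (3.22).

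Some of the most abundant RNAs were in this class as well. Mt1, a metallothionein that binds zinc and copper, had input of 713, 717, 739, 678 and 769 TPM and footprints of 17088, 9437, 7971, 19044 and 8062 TPM, a mean difference of 3.98 (SE 0.25, adjusted p 7.3e-08). The WT and Wdr4 ff libraries held more Mt1 footprints than the other 3. Tmsb10, a thymosin that binds actin monomers, had 788 to 911 TPM in input and 4509 to 10674 TPM in footprints (3.10). Among the genes with the most input RNA that were called higher, Actb had 3961 to 4569.6 against 6613 to 14401 TPM (1.16), S100a6 had 3315 to 4041 against 10338 to 14679 TPM (1.71), and S100a11 and S100a10, also small calcium-binding proteins of the S100 family, had differences of 1.06 and 1.12. Cfl1, which severs actin filaments, had 1.07, and 0.87 without sgWdr4-1, which is under the size asked for. Bsg, a membrane glycoprotein, had footprints of 3975, 1666, 4063, 5142 and 6153 TPM against input of 1728, 1925, 1757, 1649 and 2166 TPM: the sgWdr4-1 pair alone had fewer footprints than input, and the mean was 1.07 with it and 1.39 without it.

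At the other end, 67 genes had a mean of -4 or lower. Of the 12 lowest that the naming rule took, 7 encode cytosolic ribosomal proteins. Rps2, of the small subunit, was at 6873, 6826, 7107, 6219 and 5742 TPM in input, and its footprints were listed at 0 in 4 libraries and at 0.195 TPM in Wdr4 cKO. Rps26 and Rpl5 were at 3586 to 4785 and 1302 to 1616 TPM in input, and their footprints were listed at 0 in all 5 libraries. Rpl41, which encodes one of the shortest ribosomal proteins, had input of 4651 to 5811 TPM and footprints of 0, 0, 0.88, 0 and 2.89 TPM. Rps18 had 2897 to 3608 TPM in input and 0 to 2.75 TPM in footprints, and Rpl12 had 1562 to 2033 against 1.76 to 12.1 TPM. Every footprint value of these genes lay far below every input value, which follows in part from picking them by their low means. Where footprints are at or near 0, the log2 difference is set by the pseudocount of 1, so levels are given in its place.

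The other genes at this end were of several kinds. Ppia (cyclophilin A, a prolyl isomerase) had 2716 to 3381 TPM in input and 0 to 5.06 TPM in footprints, and Mif, a cytokine, had 1661 to 1793 against 0 to 0.784 TPM. Atp5mc2, for a ring subunit of ATP synthase, had 427 to 488 against 0 to 1.39 TPM, and Hnrnpa3, an RNA-binding protein, had 740.5 to 935 against 0.3 to 4.47 TPM. Tuba1b, an alpha-tubulin, had 3117 to 3603 against 6.21 to 24.3 TPM, with a mean difference of -7.92 (SE 0.25, adjusted p 6.8e-11).

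Many of these genes have near-identical copies in the genome, to which short footprint reads could be given, and how the authors treated reads that match several places is not given in the sources used here. Their values are therefore uncertain. Of the 67 genes at -4 or lower, 23 have a pseudogene named after them in the gene tables; that was 7.90% of the 291 genes with such a pseudogene that passed the filter, against 0.490% of the 8975 others. Within the cytosolic ribosomal proteins it was 8 of 65 genes with such a pseudogene (12.3%) and 2 of 19 without (10.5%). Among the 12 lowest it was 7. Over all genes past the filter, the median was -0.70 with a named pseudogene and -0.83 without. Only pseudogenes that carry the gene's own symbol followed by -ps were counted, so genes counted as without one can still have copies. Eif3j2, a copy of Eif3j1, was counted as without. These shares therefore do not compare genes with copies to genes without copies. Some copies have rows of their own in the tables; how reads were divided between them was not tested. Sap18, of a histone deacetylase complex, had the largest difference among the 12 highest genes, from which histones were left out, 5.33, with 26.4 to 39.5 TPM in input and 1077 to 1915 TPM in footprints, whereas its copy Sap18b had 574, 534, 591, 555 and 525 TPM in input and 202, 29.0, 207, 184 and 0 TPM in footprints. Summed, the pair had a difference of 1.36. Rps27rt, a copy of Rps27, had 4.64, while the sum with Rps27 had 0.24. Eif3j1 had 2.13, its copy Eif3j2 was listed at 0 in all footprint libraries with 59.8 to 68.9 TPM of input, and their sum had 0.77. For the alpha-tubulins Tuba1a, Tuba1b and Tuba1c the sum stayed low, at -4.42.

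**Figure D2:**
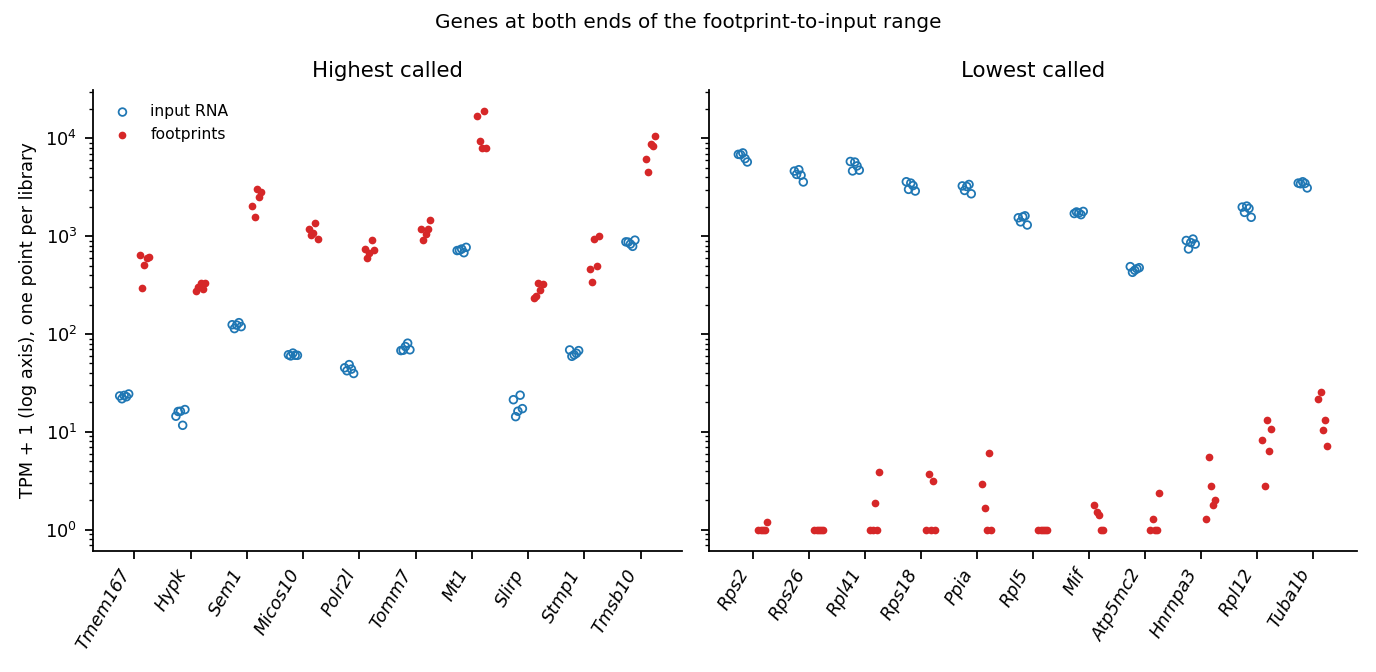
Input RNA (open circles) and footprints (filled circles) of each library, as TPM + 1 on a log axis, for 10 of the highest and 11 of the 12 lowest genes that the naming rule took; each gene has 5 points of each kind. The footprint points lie above all input points for the genes on the left and below all input points for those on the right, where Rps26 and Rpl5 have all 5 footprint points at 0 TPM. The genes were picked for their extreme means in these same libraries.

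Cytosolic ribosomal protein genes covered the widest range of the lists, from genes with footprints listed at 0 to Rps29. Of 88 genes with such symbols (paralogues included), 84 passed the filter. Their median was -0.34 on the TPM scale, with 12 called higher and 31 lower, but 0.46 relative to the median gene, with 25 higher and 19 lower (29.8% and 22.6%, against 20.7% and 18.0% of all genes). The direction of the list thus depended on the scale. Relative to the median gene the list's median was -0.11, 0.64, 0.39, 0.07 and 0.97 in the 5 pairs. The share of these genes in a library's summed TPM was 13.6% to 16.8% for input and 9.98% to 14.3% for footprints, less in footprints in 5 of 5 pairs (exact two-sided sign-flip p = 0.0625, the smallest that 5 pairs allow).

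The highest of the list came from both subunits. Rps29, of the small subunit, had input of 966, 578, 775, 796 and 714 TPM and footprints of 4985, 3253, 8007, 6669 and 6656 TPM, so footprints were higher in every pair (mean 2.90, SE 0.21, adjusted p 2.9e-07). Rps20, Rpl38, Rps21 and Rpl39 followed with means of 2.60, 2.50, 2.43 and 2.30. Rplp0, the stalk protein and a common reference gene, had 3788 to 4607 TPM in input against 207 to 508 TPM in footprints, a mean of -3.71. Of the 84 genes, 10 lay at -4 or lower and the rest ran from Rplp0 to Rps29.

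Starts of the TOP kind were found in genes at different places in this list. Only Rps18 lay near the bottom, and the next lowest gene with such a start, Rpl15, had a mean of -1.02. RefSeq promoter windows (GRCm38.p6) matched 7418 of the 9266 genes and 63 of the 84. A C at the listed start followed by at least 4 C or T (read on the gene's own strand, with no other motif searched) was found in 228 of the 7418 (3.07%) and in 15 of the 63 (23.8%). The listed starts of many genes may differ from those used in these cells, so a window without the run says only that these letters are not at the listed start. The 6 windows printed here go from the lowest to the highest of these 15 genes. Each window runs from 10 bases before the listed start to 20 from it, and capitals mark the unbroken pyrimidine run that begins at the start.
Rps18 (chr17:33955646-33955675, minus strand): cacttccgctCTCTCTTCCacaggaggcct
Rpl15 (chr14:18270967-18270996, minus strand): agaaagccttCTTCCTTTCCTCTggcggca
Rps6 (chr4:86857348-86857377, minus strand): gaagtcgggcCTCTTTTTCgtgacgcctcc
Rps27 (chr3:90213629-90213658, minus strand): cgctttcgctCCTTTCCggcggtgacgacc
Rpl35 (chr2:39005112-39005141, minus strand): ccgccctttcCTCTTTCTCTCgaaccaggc
Rpl38 (chr11:114668570-114668599, plus strand): aagcctcgttCTTTCCCCgttctcttcggt
Rps18 stood near the bottom of the list and Rpl38 near its top, and both began with such a run. Rps18 has a named pseudogene and footprints at or near 0, so its place is uncertain. Between Rps18 and Rpl38, Rpl15 had a mean of -1.02, Rps6 -0.77, Rps27 -0.02 and Rpl35 1.54. Among these 6 the run was longest in Rpl15, at 13 bases. The median of the 15 genes with the run was 0.07, and that of the 48 without it was -0.78, beside -0.71 for the 228 genes and -0.84 for the 7190 others; all 4 are medians of the TPM scale, given as a description.

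**Figure D3:**
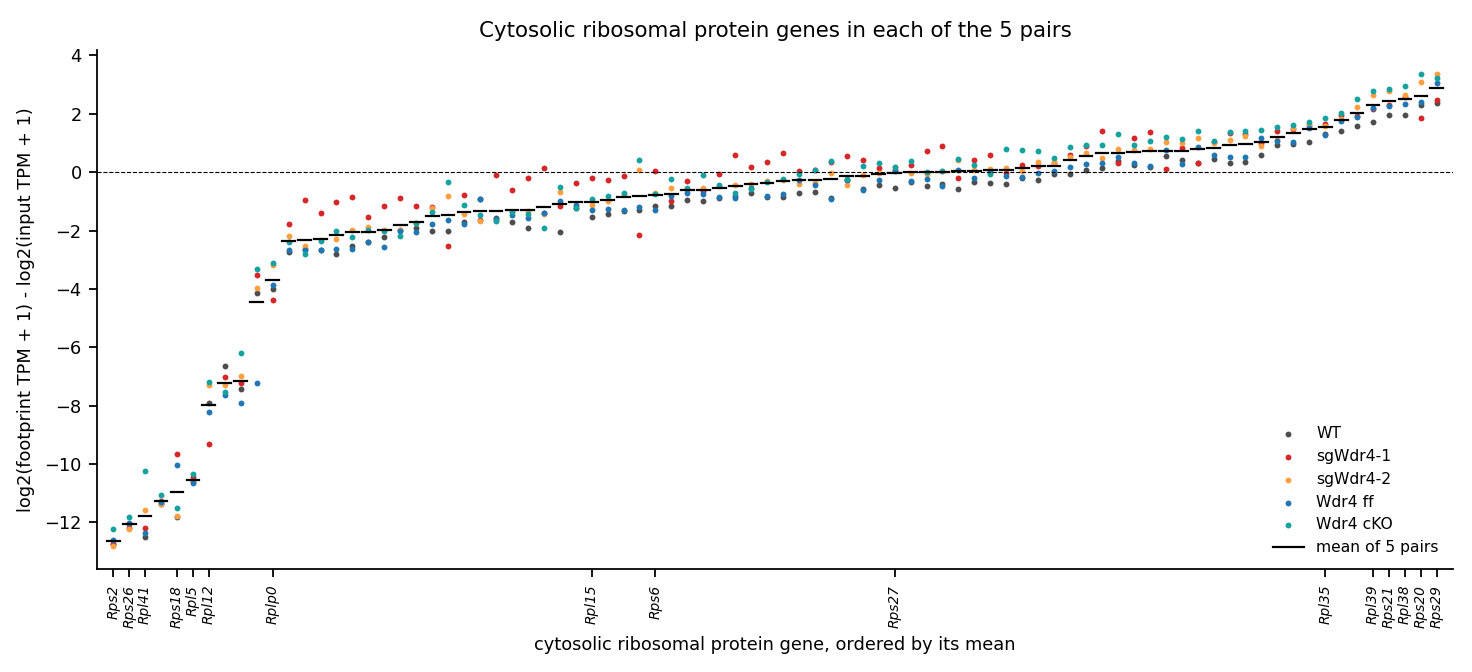
Footprint-to-input difference of each cytosolic ribosomal protein gene past the filter, ordered by its mean, with a point for each of the 5 pairs and a bar for the mean; the genes named in the text are labelled. The genes at the left end have footprints at or near 0, where the pseudocount sets the value; the series reaches 2.90 at Rps29.

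Other mRNAs of the translation apparatus ran from -4.93 for Pabpc1 to 2.14 for Eif1ax. The 18 other TOP mRNAs had a median of -0.15 relative to the median gene, with 2 higher and 5 lower after centring (11.1% and 27.8%, against 20.7% and 18.0% of all genes). Their median was 0.29 in the sgWdr4-1 pair, against -0.66 to -0.04 in the others, and -0.35 without that pair. Eef1a1, the elongation factor that delivers aminoacyl-tRNA, had the most input RNA of any gene called lower, at 11112, 10473, 11239, 11667 and 9554 TPM, and footprints of 2357, 8120.4, 3044, 2185 and 2126 TPM. The sgWdr4-1 footprint library stood above the other 4, and the mean was -1.81 with that pair and -2.18 without it. Eef2, which moves the ribosome along, had -2.27 (-2.60 without it), while Eef1b2, which recharges Eef1a1, had 1.60 and footprints above input in every pair. Pabpc1, the poly(A)-binding protein, was lowest, with 1539 to 1684 TPM in input and 37.6 to 148 TPM in footprints (-4.93), and Tpt1 had -0.77 and was not called. Of the 34 initiation factors, 11 were higher and 6 lower after centring (32.4% and 17.6%, the latter close to the 18.0% of all genes). Their median was -0.06, or -0.17 without sgWdr4-1. The scaffold Eif4g1 had -3.47, the helicase cofactor Eif4b had -2.44 and the cap-binding Eif3d had -2.53. The start-codon factors Eif1 and Eif1ax had 1.45 and 2.14.

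Several lists of enzymes, chaperones and assembly factors had medians below the median gene, though only some held more lower calls than all genes did. All 20 aminoacyl-tRNA synthetases, which load amino acids onto tRNA, had negative means, from -2.40 for Lars to -0.80 for Farsb, and 18 were called lower on the TPM scale, against 44.0% of all genes. Relative to the median gene the list had a median of -0.70 with 2 called lower, a smaller share than the 18.0% of all genes. Kars, for lysine, had input of 366, 352, 373, 387 and 293 TPM and footprints of 56.6, 164, 77.2, 65.4 and 54.9 TPM. Ribosome biogenesis factors had a median of -0.72 and 18 of 40 lower after centring, against 18.0% of all genes, among them Utp20 (72.7 to 96.6 TPM in input against 2.15 to 19.4 TPM in footprints) and Nolc1 (-3.09), while Nop10 (1.81) and Nip7 (1.14) were higher. The 8 subunits of the TRiC chaperonin, which folds actin and tubulin, ran from -1.91 for Cct4 to -0.44 for Cct3, and 1 of the 8 was lower after centring. The 17 heat shock proteins had a median of -0.52 and 7 lower after centring (41.2%), with Hsph1 at -2.52 and the mitochondrial co-chaperone Hspe1 at 1.11. The 18 enzymes of the tricarboxylic acid cycle had a median of -0.52, with 15 lower on the TPM scale and 3 after centring (16.7%, below the share of all genes).

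DNA replication genes had a median of -0.64, with 3 of 38 higher and 13 lower after centring (7.89% and 34.2%, against 20.7% and 18.0% of all genes). Fen1, the flap nuclease of lagging-strand synthesis, had 116 to 127 TPM in input and footprints listed at 0 in all 5 libraries. Orc1, of the origin recognition complex, had -2.93 and the ligase Lig1 -2.88, while Gins2, of the replicative helicase, had 1.60. Among glycolytic genes Gapdh was at 5311, 5893, 5355, 5254 and 5761 TPM in input and 116, 439, 149.6, 138 and 83.5 TPM in footprints (-5.15, SE 0.28, adjusted p 1.8e-08). Its footprints were below input in every library; Gapdh also has a named pseudogene.

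The sgWdr4-1 pair stood above the other pairs in these lists. Relative to its own median gene, it stood at 0.17 for aminoacyl-tRNA synthetases, where the other pairs stood between -1.19 and -0.79. The values were 0.38 against -0.87 to -0.48 for TRiC, 0.29 against -0.85 to -0.61 for heat shock proteins, 0.28 against -0.95 to -0.59 for the tricarboxylic acid cycle and 0.23 against -0.93 to -0.71 for DNA replication. It was the highest pair for all 8 TRiC genes, all 18 cycle genes, 17 of the 20 synthetases and 34 of the 40 biogenesis factors, against 2430 of all 9266 genes (26.2%). Without it the list medians were -0.87, -0.68, -0.73, -0.75 and -0.79 in the order just given, and -0.84 for biogenesis.

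**Figure D4:**
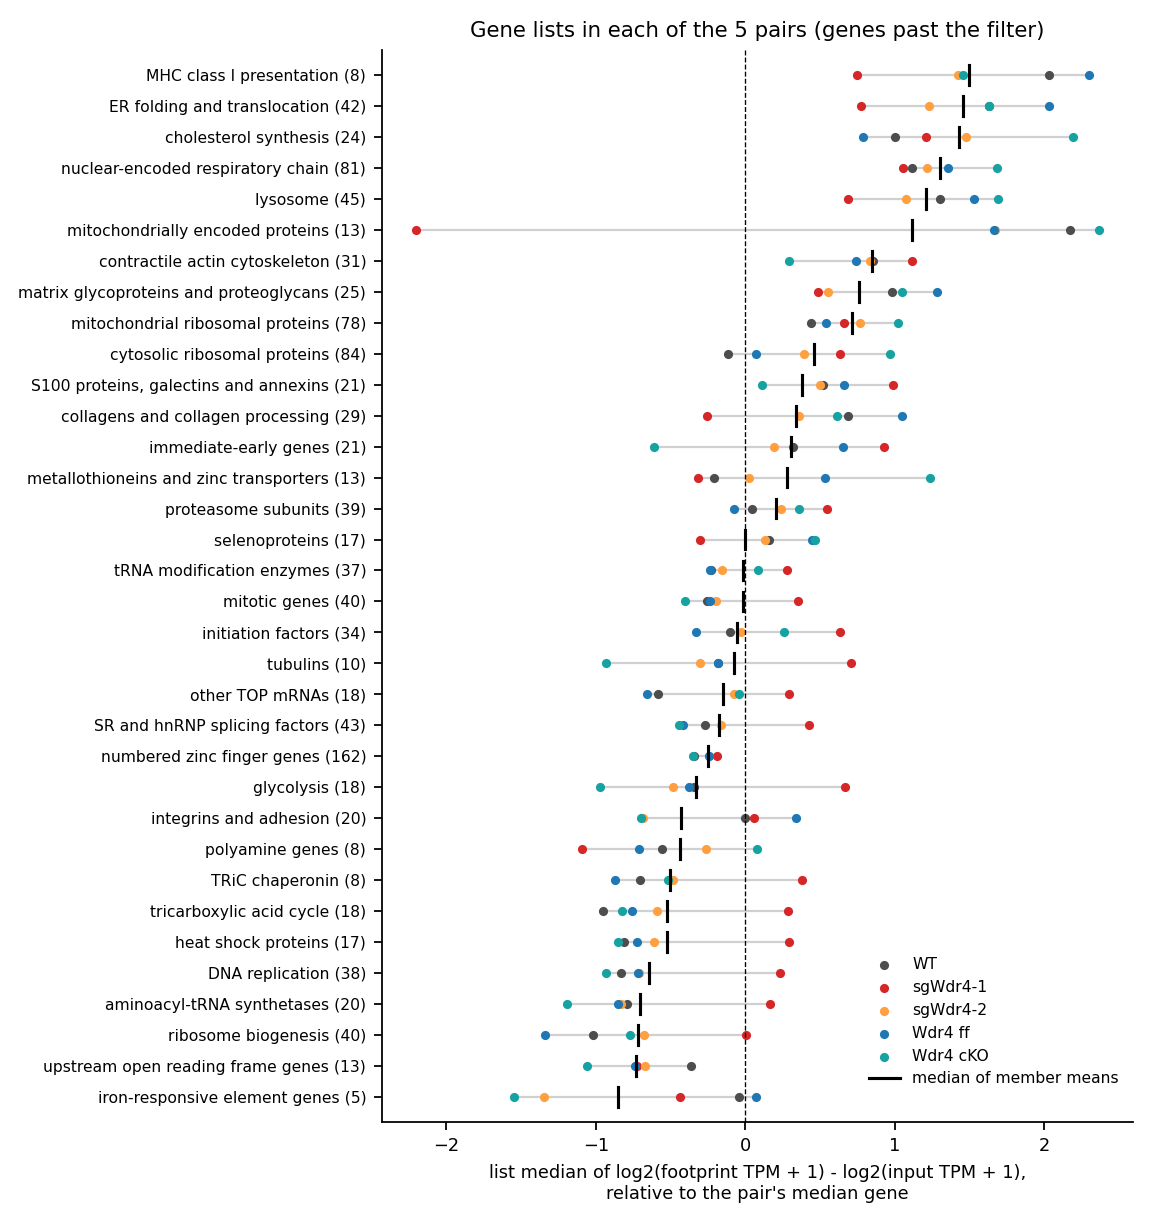
Median footprint-to-input difference of 34 gene lists in each pair, relative to that pair's median gene (dashed line at 0), with the number of genes past the filter in brackets; points are pairs and black bars are the medians of the members' means. The red sgWdr4-1 points lie right of all others for the chaperones, synthetases, replication and cycle genes and far left for the mitochondrially encoded genes.

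Genes of the secretory pathway had more footprints per RNA than the median gene. In the list for folding and translocation at the endoplasmic reticulum, 31 of 42 genes were higher and 1 lower after centring (73.8% and 2.38%, against 20.7% and 18.0% of all genes), with a median of 1.46 (0.66 on the TPM scale). Ssr1, a subunit of the complex beside the translocation channel, had input of 158, 161, 157, 152 and 175 TPM and footprints of 651, 357, 499.8, 743 and 639.8 TPM, and Sec62, a channel cofactor, had 1.93. Manf, a secreted protein of the reticulum, had 1.69. The exception was Sec61g, the small channel subunit, at 153 to 172 TPM in input and 0 to 3.48 TPM in footprints. Srp72, a cytosolic protein of the signal recognition particle, had -1.72. The share of footprint TPM taken by this list was 1.59% to 2.64%, against 0.965% to 1.18% of input, higher in 5 of 5 pairs (exact two-sided sign-flip p = 0.0625).

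Lysosomal genes had a median of 1.21, with 28 of 45 higher and 2 lower after centring (62.2% and 4.44%, against 20.7% and 18.0% of all genes). The protease Ctsb had input of 194, 207, 189, 196 and 254 TPM and footprints of 1326, 626, 1006, 1768 and 1399.7 TPM, so footprints exceeded input in every pair (mean 2.48, SE 0.22, adjusted p 1.6e-06). Npc2, which carries cholesterol out of the lysosome, had 2.40. Cd63, a membrane protein with several passes, had 1999 to 2209 TPM in input and 224 to 502 TPM in footprints (-2.57), and Atp6v1h, of the cytosolic side of the proton pump, had -1.82. For MHC class I, B2m had 1.84, H2-K1 1.58 and H2-D1 1.16, and H2-T22 had -3.83; class I genes are alike in sequence, so their split is uncertain. Here too sgWdr4-1 differed: it was the lowest pair for 38 of 45 lysosomal genes and 28 of 42 reticulum genes, against 3670 of all genes (39.6%). Its list medians were 0.69 and 0.78, and those of the other pairs 1.08 to 1.69 and 1.23 to 2.03.

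Of 24 cholesterol synthesis and uptake genes, which sit mostly in the membrane of the reticulum, 16 were higher and 0 lower after centring (20.7% and 18.0% of all genes), with a median of 1.43. Tm7sf2, Dhcr7 and Ebp, of the late steps, had 1.59, 1.31 and 1.26. Srebf2, the transcription factor that drives the pathway, had -1.55, and Sqle had -1.03. In Sqle the Wdr4 cKO pair had equal levels, at 113 TPM of input and 114 TPM of footprints, while the other pairs were at 153 to 209.7 against 63.7 to 84.1 TPM. This was not particular to Sqle. The list median was 2.19 in Wdr4 cKO, against 0.78 to 1.47 in the other pairs. Wdr4 cKO was the highest pair for 22 of the 24 genes, against 28.7% of all genes.

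Extracellular matrix genes lay on both sides of the median gene. Matrix glycoproteins had a median of 0.76 relative to the median gene (-0.04 on the TPM scale), with 11 of 25 higher and 2 lower after centring, and collagens with their processing enzymes had 0.34 (-0.46 on the TPM scale), with 9 of 29 higher and 2 lower; all genes had 20.7% and 18.0%. The collagen median was 0.56 without sgWdr4-1 and 0.18 without Wdr4 ff. Sparc, a matrix protein, had input of 791, 924, 791, 820.2 and 962 TPM and footprints of 2388, 1819, 1565, 2925 and 2129.6 TPM (1.31). Fbln5 had 1.88, Sdc4 1.45, and the collagen-processing Lox, Pcolce and P4ha1 had 1.46, 1.45 and 1.17. At the low end of these lists, fibronectin, Fn1, had 1180.5 to 1802 TPM in input and 109 to 452 TPM in footprints (-2.64), perlecan, Hspg2, had -2.85, and the collagens Col6a3 and Col12a1 had -3.12 and -2.47; these were the 4 genes of both lists called lower after centring.

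Of 31 genes of the contractile actin cytoskeleton, 13 were higher and 2 lower after centring (41.9% and 6.45%, against 20.7% and 18.0% of all genes), with a median of 0.84. Pfn1, which loads actin monomers, had input of 1279, 1343, 1313, 1237 and 1279.7 TPM and footprints of 5016, 6468, 5896, 5866 and 5511 TPM, with a mean of 2.15 and an SD over pairs of 0.12. Tmsb4x had 1.70. The cross-linker Flna had input of 984, 1226, 1011, 910.4 and 1260.0 TPM and footprints of 66.3, 339, 42.0, 62.0 and 40.5 TPM (-3.81), and the sgWdr4-1 library again stood above the other 4 in footprints. Tagln, an actin-binding protein of smooth muscle, was at 841 to 1079 TPM in input and 77.5 to 231 TPM in footprints (-2.85).

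Nuclear-encoded respiratory chain genes were among the highest lists in every pair. Of 81 past the filter, 49 were higher and 5 lower after centring (60.5% and 6.17%, against 20.7% and 18.0% of all genes), and the list median lay between 1.05 and 1.68 in the 5 pairs. Their share of the summed TPM was 2.06% to 2.23% for input and 3.46% to 4.31% for footprints, higher in 5 of 5 pairs (exact two-sided sign-flip p = 0.0625). Cox8a, of the oxidase, had input of 662, 749.9, 677, 614 and 698 TPM and footprints of 4975, 3419, 5804, 4835 and 11224 TPM (3.03). Ndufa5 and Ndufb1, of complex I, had 2.97 and 2.94, and Uqcr11, of the cytochrome bc1 complex, 2.80. At the low end, cytochrome c, Cycs, had 124 to 150.01 TPM in input and footprints listed at 0 in all libraries, and Ndufb4 had 93.0 to 111 against 0 to 1.17 TPM. Mitochondrial ribosomal proteins had a median of 0.71 relative to the median gene (-0.08 on the TPM scale), with 26 of 78 higher and 4 lower after centring (33.3% and 5.13%). Mrpl51 and Mrpl57 had 2.46 and 2.16, and Mrpl33 and Mrps27 had -3.44 and -2.35.

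The 13 mitochondrially encoded proteins were high in 4 pairs and low in the sgWdr4-1 pair. Relative to the median gene their median was 2.17 in WT, 1.67 in sgWdr4-2, 1.66 in Wdr4 ff and 2.36 in Wdr4 cKO, and -2.20 in sgWdr4-1. Their share of the summed TPM was 5.39% to 6.56% in input libraries; it was 9.94% to 14.6% in 4 footprint libraries and 0.781% in that of sgWdr4-1. All 13 genes had their lowest pair there. mt-Co1, the catalytic subunit of the oxidase, had footprints of 12713, 690.2, 8737, 8154 and 11545 TPM against input of 8824 to 10014 TPM, and mt-Nd6, of complex I, had footprints of 8179, 559.8, 5625, 4940.1 and 8749 TPM against input of 866 to 1294 TPM. mt-Nd1 was lower in every pair, with a mean of -2.34, or -1.62 without sgWdr4-1, and mt-Nd4l had 1.47, or 2.08 without it. Without that pair the list median was 1.96, against 1.11 with it.

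Replication-dependent histone genes, whose mRNAs end in a stem-loop and carry no poly(A) tail, were nearly missing from the poly(A)-enriched input and present in footprints. Of 66 genes listed, 56 passed the filter, 53 of them through footprints alone, so that their higher calls follow from how they entered. Their share of TPM was 0.0101% to 0.0134% in input and 2.46% to 4.06% in footprints. H2bc6 had input of 0.558, 0.178, 0.187, 0.444 and 0.096 TPM and footprints of 2821, 4878, 2889, 3127 and 2882 TPM. The 3 that entered through both levels were higher as well; H1f2 had 24.8 to 28.4 against 158 to 521 TPM (3.12) and H4c9 14.1 to 23.8 against 91.8 to 167 TPM (2.70). Histone genes within a family are alike in sequence, so the values of single genes are uncertain. Among long non-coding RNAs, Tug1 passed the filter, through footprints alone, with 1.81 to 4.55 TPM in input and 12.9 to 32.4 TPM in footprints.

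Genes known for translational control stood at different places in the range. Of 13 genes with upstream reading frames, 2 were higher and 3 lower after centring (15.4% and 23.1%, against 20.7% and 18.0% of all genes), with a median of -0.73, or -0.45 without Wdr4 cKO. Atf4, the transcription factor of the integrated stress response, had input of 687, 719, 662, 676 and 724 TPM and footprints of 541, 356, 486, 516 and 429 TPM, a mean of -0.59 that lay above the median gene. Atf5 had 1.74, with footprints above input in every pair, whereas Ifrd1 had -2.76 and Ppp1r15b -2.14. Ddit3 had -1.01 for the row with most input RNA; a further row of the same symbol had 84.3 to 179 TPM of footprints with 0 to 2.11 TPM of input, so its value depends on which row is read. Ferritin mRNAs can be held back by iron regulatory proteins through an element near the cap. Ftl1 had 3327 to 4388 TPM in input and 100 to 232 TPM in footprints (-4.64). Fth1 had input of 2269, 2821, 2254, 2303 and 3129.8 TPM and footprints of 1346, 717, 519, 1393 and 487 TPM (-1.65). In WT and Wdr4 ff the Fth1 difference, -0.75 and -0.72, lay close to the pair medians of -0.71 and -0.80. In sgWdr4-1, sgWdr4-2 and Wdr4 cKO it was -1.98, -2.12 and -2.68, well below the pair medians. Ftl1 has a named pseudogene. The transferrin receptor Tfrc, whose elements lie behind the coding region, had 1.11.

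In the polyamine pathway, ornithine decarboxylase Odc1 had 469 to 533 TPM in input and 13.3 to 33.1 TPM in footprints (-4.60, SE 0.21, adjusted p 3.0e-09), and Amd1, which has an upstream reading frame that senses polyamines, had -3.09. The antizyme Oaz1, which is read through a frameshift and marks Odc1 for decay, had 969.7 to 1121 against 695 to 1239.9 TPM and a mean of -0.15, with overlapping values. Azin1, the antizyme inhibitor, had -1.65 and Sat1 0.03. The glutathione peroxidases Gpx4 and Gpx1, selenoproteins, had 573 to 685 against 2.67 to 11.1 and 227 to 254 against 1.66 to 6.73 TPM. Selenok footprints were listed at 0 in all libraries, with 59.9 to 80.4 TPM of input. Selenow (1.38) and Selenos (1.04) were higher, Sephs2 was lower at 43.9 to 62.1 against 11.05 to 17.5 TPM, and the 17 selenoprotein genes had a median of -0.80 on the TPM scale, beside -0.83 for all genes, with 6 higher and 5 lower after centring (35.3% and 29.4%, against 20.7% and 18.0% of all genes).

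A few genes with at least 20 TPM in both kinds of library varied most between pairs. Rnaset2b had footprints of 68.5, 27.4, 0.002, 108 and 0.022 TPM with input of 49.9 to 65.5 TPM, so that sgWdr4-2 and Wdr4 cKO stood apart from the rest, but together with its copy Rnaset2a the SD over pairs fell from 3.33 to 0.72. Sap18b and Kpna2rt, also copies, had SDs of 3.27 and 1.64. Hmox1, which breaks down heme, had input of 78.7, 135, 78.6, 83.2 and 243 TPM and footprints of 58.5, 102, 17.8, 57.3 and 12.02 TPM: the libraries with the fewest footprints were sgWdr4-2 and Wdr4 cKO, and the latter had the most input. Sema7a, a membrane-anchored semaphorin, showed the same 2 libraries low, with footprints of 64.1, 41.9, 9.31, 92.9 and 20.1 TPM and input of 35.5, 69.7, 32.0, 32.4 and 97.9 TPM. Soat1, which esterifies cholesterol, had input of 84.9, 96.1, 103, 0.118 and 3.52 TPM, close to 0 in the TAM table and not in the iBMDM table.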

How the data were processed

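The authors deposited TPM tables for iBMDM (6 libraries) and TAM (4 libraries), with no counts; per the submitters' processing notes fastp 0.18.0 and Bowtie2 were used. The genome build, the annotation, the gene lengths behind TPM and the treatment of multi-matching reads were not given in the sources used here. The deposited tables hold 21956 rows each. For the 20 symbols with several rows, the row with the highest mean input was kept if it was at least 2-fold above the next in both tables, and 7 symbols were left out. Input and footprints were paired by condition, as the labels name them, and all columns were matched to samples.

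A pseudocount of 1 was added before log2, which understates the change of low genes. limma 3.58.1 in R 4.3.3 fitted all 9266 genes with the condition as a block (4 residual degrees of freedom, expression trend, Benjamini-Hochberg); a gene was called at an adjusted p under 0.05 and a mean of at least 1 in size. Shares were tested by exact sign flips over the 5 pairs. The fit was first tested on simulated data. Alternatives were other pseudocounts, filters, centring, rescaling, pairing, tables and left-out libraries. Other steps ran in Python 3.11.15 (pandas 2.3.3, numpy 2.4.6; figures in matplotlib 3.10.9).

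The members and the 39 gene lists were chosen with earlier results of these data known. The naming rule took the 12 highest and 12 lowest called genes with mean input of at least 10 TPM (for the highest, footprints too), without gene models, histones, mitochondrially encoded genes and listed non-coding RNAs. It added up to 5 genes per list and side, the 6 most abundant called genes per side, the 6 with the largest SD over pairs and a fixed set of reference genes. Copies of named genes and genes shown with a sequence were named besides, and not every gene the rule took is described; some are not reported here. Sequences are RefSeq's, GRCm38.p6.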

Additional observations from a re-analysis of the deposited data

Results flagged for a closer look

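Of 196 sets of 5 values compared (36 list medians, 16 library shares and 144 named genes), 24 held 1 value set far from the other 4; chance gives this in about 1 of 20 sets. In 21 of the 24 the value was that of the sgWdr4-1 pair, in 2 that of Wdr4 cKO and in 1 that of WT. Genes of a list share libraries and often their course, so these are not independent.

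In the sgWdr4-1 pair the list medians relative to the median gene were -2.20 for mitochondrially encoded proteins (others 1.66 to 2.36), 0.29 for heat shock proteins (others -0.85 to -0.61), 0.35 for mitotic genes (others -0.40 to -0.20) and 0.23 for DNA replication genes (others -0.93 to -0.71). The footprint-to-input differences of single genes on the TPM scale were lower there for mt-Nd1 (-5.21), mt-Nd6 (-0.63), mt-Nd4l (-0.99), mt-Co1 (-3.74), Bsg (-0.21, others 1.20 to 1.64) and Ndufa5 (2.37, others 3.05 to 3.22). They were higher there for Eef1a1 (-0.37, others -2.42 to -1.88), Pabpc1 (-3.42), Eif4b (-0.61), Eif3j1 (2.75), Kars (-1.09), Utp20 (-1.96), Nolc1 (-1.40), Cct4 (-0.33), Cct3 (0.73, others -0.93 to -0.47), Hsph1 (-0.43, others -3.43 to -2.85) and H1f2 (4.32). The footprint library of this pair also had the lowest correlations with its kind, 0.876 to 0.916; what part library preparation or the guide had was not tested.

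In the Wdr4 cKO pair Sqle stood at 0.007, while the others lay between -1.36 and -1.22. Of 24 cholesterol genes, 22 had their highest value relative to the median gene in that pair. Lysosomal genes took 1.15% of input TPM in Wdr4 cKO, while the others lay between 0.996% and 1.03%. In the WT pair Rps27 stood at -0.53, while the others lay between 0.05 and 0.17.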

How the results depend on the processing

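The 2 counts of called genes, 751 higher and 4078 lower, stayed within 1.5 times under every alternative except centring each pair on its median gene, which gave 1922 and 1670 because the median gene of every pair lies below 0 on the TPM scale. Leaving out a library gave 698 to 830 higher and 3749 to 4231 lower genes. Without the replicate block, which pairs input and footprints of a condition, 749 were higher and 4075 lower. With the footprints of the TAM libraries crossed, the counts were 754 and 4079. Both alternatives leave the mean difference of every gene unchanged and alter only its spread, so they could move the counts little and cannot test the pairing. Leaving out the symbols with several rows, an alternative chosen after seeing the data, gave 750 and 4072. Of the 144 named genes, 131 were called; 109 of these kept the call in every alternative, 22 lost it in at least 1, and none was called in the opposite direction. Of the 13 not called, 2 were called in at least 1 alternative, Mettl1 and Rps6. Where 1 library was left out, 21 calls of 12 genes were lost, 19 of them because the mean fell under 1 in size. The rest were those of Rnaset2b without sgWdr4-2 (-1.43) or Wdr4 cKO (-1.34), where the mean stayed over 1 in size. Cfl1 lost the call without sgWdr4-1 (0.87), and H2-D1 and P4ha1 lost it without Wdr4 ff (0.91 and 0.98). Ddit3, Hmox1 and Hspe1 lost it without Wdr4 cKO (-0.68, -0.86 and 0.95). Wdr4 and Selenos lost it without WT (-0.85 and 0.90) or Wdr4 ff (-0.74 and 0.74), Bsg without Wdr4 ff (0.93) or Wdr4 cKO (0.96), Rpl15 without WT, sgWdr4-2 or Wdr4 ff (-0.89, -0.99 and -0.94) and Sqle without WT, sgWdr4-1, sgWdr4-2 or Wdr4 ff (-0.94, -0.97, -0.98 and -0.96). With no filter on low values, which admits 15484 genes and so moves the median gene itself by 0.53, 23 list medians moved by more than their spread over pairs, 22 of them downward. The median of cytosolic ribosomal proteins changed from 0.46 to -0.011 and that of iron-responsive element genes from -0.85 to 0.14. Mitochondrial ribosomal proteins went from 0.71 to 0.18, contractile actin genes from 0.84 to 0.27, lysosomal genes from 1.21 to 0.60, the respiratory chain from 1.31 to 0.72, genes of the endoplasmic reticulum from 1.46 to 0.92 and synthetases from -0.70 to -1.24. With at least 5 TPM asked of both kinds, numbered zinc finger genes changed from -0.25 to 0.16 and selenoproteins from -0.005 to 0.53. Selenoproteins stood at 0.66 with at least 20 TPM in either kind and at 0.46 in the TAM table alone. TPM keeps no depth, so what depth limits cannot be given.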
